A study of Homo sapiens with 6 samples.

Results

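Along the long arm of chromosome 14, between ATL1 and PIGH, transcript signal was higher on the arrays labelled PSMA over much of a run of neighbouring genes, and 52 genes of that run were described here. They were chosen from an earlier look at the same values, as 2 raised parts and the genes between them, and are listed in chromosomal order. Of the 52, 42 had a probe set annotated to that gene alone, and 33 of these were above the median of all values (52.5) on 3 or more of the 6 arrays. The whole table gave 7035 genes by the same filter. The other 9 measured members lay below it, 9 had no probe set listed for them, and FNTB, which encodes the beta subunit of protein farnesyltransferase, was only on probe sets it shares with the read-through gene CHURC1-FNTB.

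The arrays carried RNA of PC3, a human prostate cancer cell line from a bone metastasis, grown in RPMI. By their labels, cells of the PSMA group (replicates 4, 5 and 6) had been transfected with the plasmid pLNCX-PSMA, which carries prostate-specific membrane antigen, the product of FOLH1. Those labelled control (replicates 1, 2 and 3) received the vector alone by their source label and were called wildtype in their titles; puromycin selection followed 72 h of recovery for both. The labels do not say whether a line was 1 clone or a pool, or whether the arrays of a group came from separate cultures, so the spread between arrays may be technical.

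Array medians ran from 51.7 to 52.9, and across probe sets any pair of arrays within a group had r = 0.9975 or more. The probe sets of FOLH1 went against the labels. All 5 that were annotated to FOLH1 or its near copy FOLH1B were lower on the arrays labelled PSMA, by 2.17- to 39.4-fold. The brightest, shared by both genes, averaged 481 ± 65.3 (SD, n = 3) on the arrays labelled control and 12.5 ± 3.44 on those labelled PSMA. An exchange of the 2 labels is therefore possible and was not tested. "Control arrays" and "PSMA arrays" mean the arrays so labelled, and every direction below follows the labels as deposited. With the labels exchanged each difference would keep its size and change its sign: the raised stretches would be lowered ones, SNAPC1 would be 2.75-fold lower, and 25 tested members would be called lower and 2 higher. All 5 epithelial markers (KRT8, KRT18, KRT19, EPCAM and CDH1) were above the filter, summing to between 16514 and 17012 on control arrays and between 13233 and 13716 on PSMA arrays. The 3 measured androgen-driven luminal genes (KLK3, KLK2 and TMPRSS2) and the 3 measured leucocyte genes were below it on all 6 arrays. Of 3 endothelial and 4 fibroblast markers, PECAM1 (50.6 and 58.2) and COL1A1 (83.1 and 90.5) alone passed.

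Genes that lie next to each other on a chromosome usually have separate promoters and unrelated products, and these members are such a set: they encode endoplasmic reticulum proteins, metabolic enzymes, phosphatases, kinases, cytoskeletal proteins and transcription factors. They share a place rather than a pathway. Genes of 1 chromosome segment share its copy number, and each transcript also answers to its own promoter. DNA was not measured, and the part of copy number in these values was not tested. In bulk RNA, more cells with a transcript and more of it per cell cannot be told apart.

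SNAPC1 and PPP2R5E were the 2 members with the largest differences among those above the filter. DAAM1, PPM1A and LGALS3 lie between the 2 raised parts and were not raised. To show what lies before such genes, the 250 bases upstream of their annotated starts are given. They are RefSeq sequence of GRCh38.p14, from the first start listed for each gene: SNAPC1 at chr14:61762170-61762419 (plus strand), PPP2R5E at chr14:63543378-63543627 (minus strand), DAAM1 at chr14:59188417-59188666, PPM1A at chr14:60245500-60245749 and LGALS3 at chr14:55129002-55129251 (all plus strand). Capitals mark matches, on either strand, to the TATA element (TATAAA), the CCAAT box, the GC box (GGGCGG) or the E-box (CACGTG); none overlapped another kind in the windows shown.
SNAPC1: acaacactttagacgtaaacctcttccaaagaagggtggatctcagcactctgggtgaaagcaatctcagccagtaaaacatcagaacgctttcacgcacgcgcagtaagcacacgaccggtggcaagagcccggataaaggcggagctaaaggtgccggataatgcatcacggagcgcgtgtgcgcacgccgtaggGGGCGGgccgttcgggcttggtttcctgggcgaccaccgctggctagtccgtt
PPP2R5E: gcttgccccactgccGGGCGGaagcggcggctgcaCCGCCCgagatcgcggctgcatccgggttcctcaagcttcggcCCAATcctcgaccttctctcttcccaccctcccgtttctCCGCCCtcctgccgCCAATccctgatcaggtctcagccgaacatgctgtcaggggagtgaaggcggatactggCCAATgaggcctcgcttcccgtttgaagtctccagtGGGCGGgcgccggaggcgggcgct
DAAM1: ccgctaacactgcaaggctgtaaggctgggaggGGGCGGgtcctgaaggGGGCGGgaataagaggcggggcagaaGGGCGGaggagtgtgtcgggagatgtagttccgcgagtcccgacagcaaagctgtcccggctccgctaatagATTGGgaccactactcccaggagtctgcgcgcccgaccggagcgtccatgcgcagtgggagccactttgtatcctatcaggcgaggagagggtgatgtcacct
PPM1A: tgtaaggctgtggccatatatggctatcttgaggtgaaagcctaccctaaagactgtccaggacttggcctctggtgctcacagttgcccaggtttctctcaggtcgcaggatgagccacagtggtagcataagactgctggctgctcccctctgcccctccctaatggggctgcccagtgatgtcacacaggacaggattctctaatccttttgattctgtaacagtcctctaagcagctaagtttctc
LGALS3: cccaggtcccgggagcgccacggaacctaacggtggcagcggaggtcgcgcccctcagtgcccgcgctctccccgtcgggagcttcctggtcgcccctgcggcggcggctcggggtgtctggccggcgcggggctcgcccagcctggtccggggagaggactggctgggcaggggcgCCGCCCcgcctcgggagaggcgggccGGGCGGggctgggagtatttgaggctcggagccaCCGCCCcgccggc

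The same motifs were counted in the windows of raised and unraised members. Of the 33 tested members, 26 had an entry in the RefSeq promoter table, 10 of them at least 1.5-fold higher and 16 below that. The GC box GGGCGG was in 7 of the 10 and in 8 of the 16, against 70.0% of the windows of all tested genes. CCAAT was in 3 of the 10 and 3 of the 16, against 36.6%. TATAAA was in 0 of the 26 (5.01% of all tested genes), and the E-box CACGTG in 0 of the 26 (9.54%). The median number of CG dinucleotides was 23.0 in the raised members and 18.0 in the others, against 22.0 over all tested genes. Single windows differed widely: SNAPC1 held 22 and PPP2R5E 23, and the unraised LGALS3 held 32, DAAM1 18 and PPM1A 1. A match is a description of letters only, and genes with several starts have other windows than the one counted.

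Over the tested members, signal was higher by a modest amount in most and by 2-fold or more in 5. The median log2 difference (arrays labelled PSMA minus arrays labelled control) was 0.43 over the 33 tested members and -0.014 over all 7035 genes. It ran from -0.26 in PLEK2 to 1.46 in SNAPC1. All values of the PSMA group lay above all values of the control group in 26 members, where 32.9% of all tested genes did so; in 4 members they lay below (36.6% of all genes), and in 3 the groups overlapped (30.5%). In 11 members the difference was at least 1.5-fold with the groups apart, as in 6.78% of all genes. By limma, at an adjusted p under 0.05, 25 members were called higher and 2 lower, with 6 not past the threshold, where 30.1% of all genes were called higher and 33.5% lower (63.6% in all). Against a minimum fold of 1.5 (limma treat) 7 members were called higher, as were 3.57% of all genes. These counts come from the contrast that chose the members and support nothing. All 33 tested members had all 3 control arrays above the filter value, so none passed through its PSMA values alone.

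Relative to each member's control mean, the median over the 33 tested members was 0.028, 0.023 and -0.046 on control replicates 1, 2 and 3, and 0.41, 0.38 and 0.42 on PSMA replicates 4, 5 and 6. Each array of a group thus sat close to the others of its group, with control replicate 3 a little below its partners. For the members from SNAPC1 to GPHN the same medians were 0.082, 0.063 and -0.15 on control arrays and 1.06, 1.19 and 1.05 on PSMA arrays, so there too the groups were apart.

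**Figure D1:**
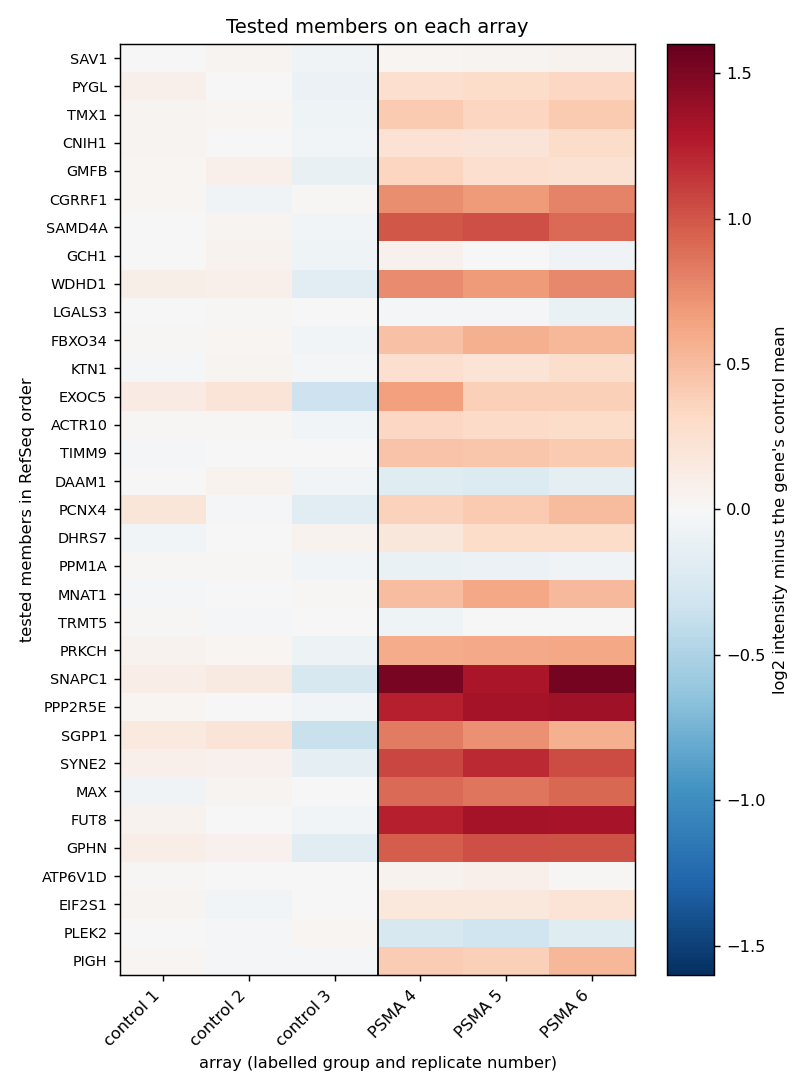
Log2 intensity of the 33 tested members, from SAV1 at the top to PIGH at the bottom, on each of the 6 arrays, as the difference from the gene's control mean (red higher, blue lower; the line parts the groups). The red band from SNAPC1 to GPHN is present on each of the 3 PSMA arrays, while GCH1, LGALS3, DAAM1, PPM1A and TRMT5 stay pale or blue within the run.

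Whether the raised genes form 1 block was read from the 57 tested genes of the interval, the 33 members and 24 others, in RefSeq order. A raised stretch was a run of genes whose running median over 5 neighbours was at least 1.5-fold. By that rule there were 4 stretches, not 1: RTRAF to FERMT2 (5 genes, median log2 difference 1.02), SAMD4A and GCH1 (2 genes), TMEM30B to ZBTB1 (9 genes, median 1.06) and MAX to GPHN (3 genes, median 1.01). The last pair was parted by HSPA2, PLEKHG3 and RAB15, whose differences were 0.54, 0.33 and -0.021. The second rested on SAMD4A and its neighbours CGRRF1 and WDHD1, while GCH1 itself had a difference of 0.001. The first includes PTGER2, which passed the filter only through its PSMA values and enters the median of 1.02. Without PTGER2 the stretch and its median were not computed. Its other genes, RTRAF, ERO1A, PSMC6 and FERMT2, had differences of 0.91, 1.02, 0.61 and 1.81. Under no width or fold limit tried did the run from RTRAF to GPHN become a single stretch.

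**Figure D2:**
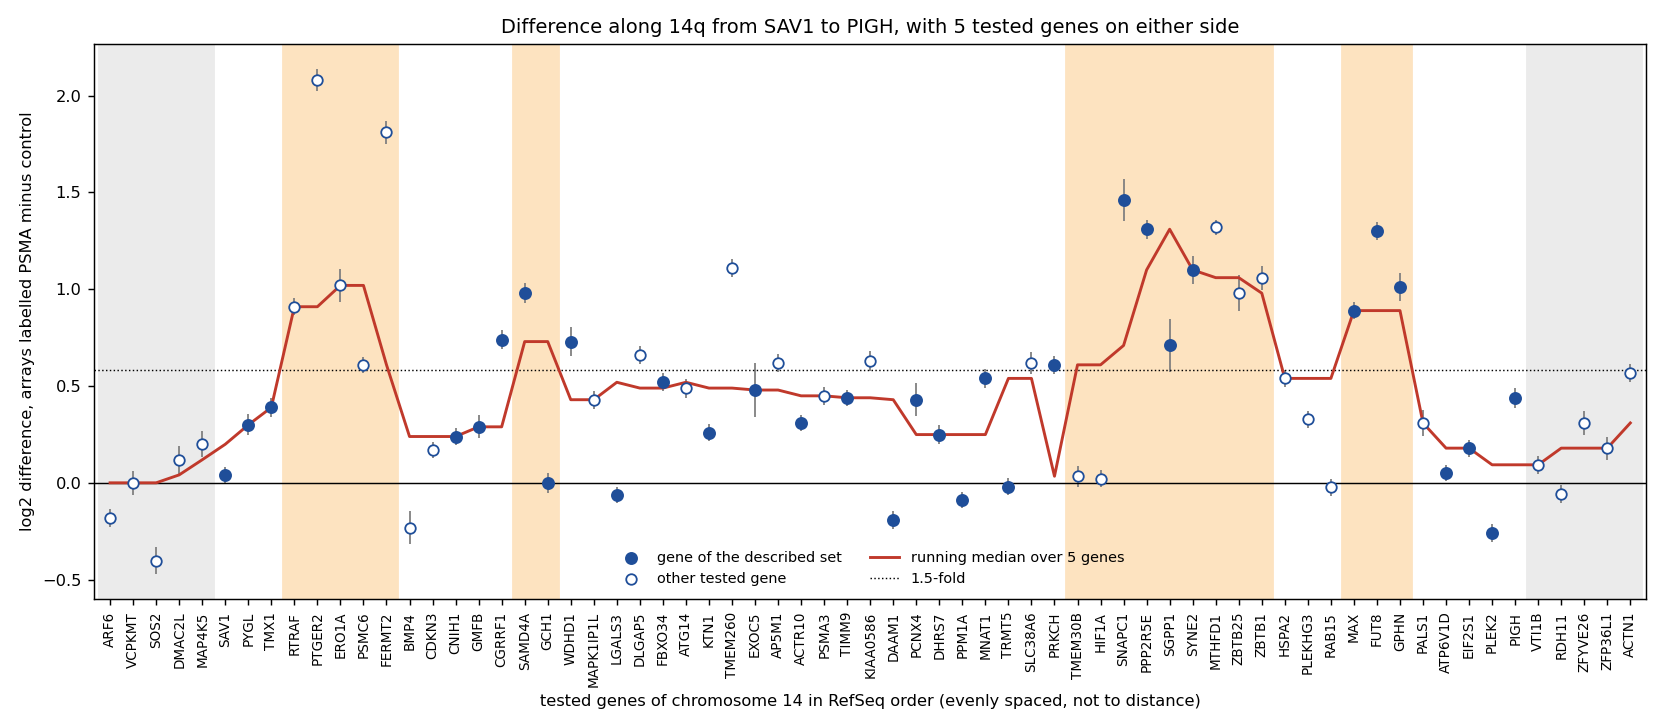
Log2 difference (arrays labelled PSMA minus control, vertical bars ± 1 SE from limma) of the tested genes of chromosome 14 from SAV1 to PIGH in RefSeq order, evenly spaced, with 5 genes on either side on grey; filled points are the 33 tested members and open points other genes. The red line is the running median over 5 genes, the dotted line 1.5-fold, and orange marks the 4 raised stretches, between which the running median stays above 0.

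The ground between the 2 high parts was not flat. From BMP4 to HIF1A, 31 tested genes had a median log2 difference of 0.43. Of these, 23 were higher on each PSMA array than on each control array, as were 32.9% of all tested genes. In 4 each PSMA array was lower (36.6% of all genes), and in 4 the groups overlapped (30.5%). The 76 tested genes of the chromosome before the interval had a median of -0.027, and the 110 after it 0.11. The 5 tested genes just before the interval lay between -0.40 (SOS2) and 0.20 (MAP4K5), and the 5 just after between -0.057 (RDH11) and 0.57 (ACTN1). The 19 members among these 31 genes had a median of 0.31, from -0.19 to 0.98: 4 were at least 1.5-fold higher, 10 were higher on each PSMA array by less than that, and 5 were not higher on each. No test compared these parts, since the values that define them are the values compared.

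At the proximal edge the difference grew over the first 3 tested members. ATL1, the first gene of the list and a GTPase that shapes the endoplasmic reticulum, had no probe set listed. SAV1, the scaffold of the Hippo kinases, read 238, 246 and 229 on control arrays and 243, 244 and 247 on PSMA arrays, and the groups overlapped. PYGL, the liver form of glycogen phosphorylase, read 796, 756 and 704 against 902, 921 and 946, higher on each PSMA array (log2 difference 0.30, SE 0.054 from limma, as for each SE below). TMX1, a thioredoxin-like protein of the endoplasmic reticulum membrane, read 2907, 2867 and 2680 against 3781, 3563 and 3755 (0.39, SE 0.049), again with the groups apart. TRIM9, a ubiquitin ligase best known in neurons, was below the filter but read 11.1, 9.60 and 8.04 on control arrays and 17.9, 22.8 and 16.4 on PSMA arrays, 1.98-fold higher with the groups apart. NIN, which encodes the centrosomal protein ninein, was near the floor at 5.83 to 7.16 on all 6 arrays, with overlap.

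The first high part held no tested member. Its 5 tested genes were RTRAF (4055 ± 111 on control and 7618 ± 224 on PSMA arrays, SD, n = 3), PTGER2 (32.6 ± 2.27 and 138 ± 0.600), ERO1A (266 ± 22.9 and 540 ± 55.2), PSMC6 (1.53-fold higher) and FERMT2 (610 ± 43.4 and 2133 ± 47.0). PTGER2, a receptor of prostaglandin E2, passed the filter only through its PSMA values, so a difference there was bound to appear. The one measured member in this part was NID2, which encodes the basement membrane protein nidogen 2. It read 11.9, 14.4 and 11.0 on control arrays and 41.6, 61.6 and 57.6 on PSMA arrays. These groups were far apart, and the log2 difference of 2.10 was larger than that of any other measured member. However, NID2 exceeded 52.5 on 2 arrays only and so fell just outside the filter. The dim member EXOC5, with 60.3 on its lowest array, exceeded 52.5 on all 6. GNG2, TXNDC16, STYX, GNPNAT1 and DDHD1, listed between TRIM9 and CNIH1, had no probe set listed. The end of this part was sharp: FERMT2 was 3.50-fold higher and the next tested gene, BMP4, read 99.7 ± 12.5 and 84.8 ± 2.66.

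After that drop came 2 members with small differences. CNIH1, a receptor that helps cargo leave the endoplasmic reticulum, read 4391, 4260 and 4149 on control arrays and 4993, 4928 and 5237 on PSMA arrays, with no overlap (log2 difference 0.24, SE 0.045). GMFB, a regulator of branched actin, read 2048, 2132 and 1854 against 2547, 2416 and 2386 (0.29, SE 0.060) on its brightest probe set. Its other tested probe set pointed the opposite way, at -0.20, so the direction of GMFB depends on the probe set.

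CGRRF1, SAMD4A and WDHD1 then stood higher than their surroundings. CGRRF1, a ring finger ubiquitin ligase, read 678, 638 and 670 on control arrays and 1113, 1057 and 1143 on PSMA arrays (0.74, SE 0.048). SAMD4A, an RNA-binding repressor of translation, read 337, 347 and 325 against 668, 689 and 630, a 1.97-fold difference with the groups apart. WDHD1, which couples helicase and polymerase at replication forks, read 296, 293 and 244 against 466, 445 and 470 (0.73, SE 0.075). Between the last 2 lay GCH1, the first enzyme of tetrahydrobiopterin synthesis, at 910, 941 and 863 on control arrays and 945, 905 and 868 on PSMA arrays. Its groups overlapped fully, with a log2 difference of 0.001 (SE 0.052).

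The next unraised member was LGALS3, which encodes the sugar-binding protein galectin-3. It read 3969, 4043 and 3970 on control arrays and 3896, 3894 and 3697 on PSMA arrays, slightly lower on each (-0.061, SE 0.042). Its tested neighbours MAPK1IP1L and DLGAP5 had differences of 0.43 and 0.66. FBXO34, an F-box protein, followed at 419, 423 and 402 against 573, 615 and 600 (0.52, SE 0.046), with no overlap. KTN1, the kinesin anchor kinectin, read 4482, 4746 and 4535 against 5539, 5339 and 5550 (0.26, SE 0.044), also apart, and its 3 probe sets lay within 0.26 to 0.32. PELI2, a ubiquitin ligase of Toll-like receptor signalling, was near the floor at 5.74 to 6.30 on control arrays and 5.41 to 7.23 on PSMA arrays.

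From EXOC5 to TIMM9 the members kept to a narrow band. EXOC5, a subunit of the exocyst that tethers vesicles to the plasma membrane, was dim at 83.3, 87.5 and 60.3 on control arrays and 120, 99.5 and 99.3 on PSMA arrays (0.48, SE 0.14). Its limma call was lost without PSMA replicate 4 (log2 difference 0.39), and without control replicate 3 the difference was 0.31. ACTR10, a subunit of dynactin, read 2780, 2784 and 2671 against 3437, 3406 and 3369 (0.31, SE 0.041). TIMM9, a chaperone of the mitochondrial intermembrane space, read 657, 671 and 668 against 913, 905 and 889 (0.44, SE 0.040). In both the groups were apart by many times the spread within them. ARID4A, a retinoblastoma-binding protein, had no probe set listed.

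DAAM1 broke the run in the other direction. This formin, which links Wnt signals to actin, read 269, 283 and 262 on control arrays and 236, 233 and 247 on PSMA arrays. Each PSMA array lay below each control array, and the log2 difference was -0.19 (SE 0.047). RTN1, a reticulon of neurons, was below the filter at 7.02 to 9.95 on control arrays and 7.66 to 8.95 on PSMA arrays.

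PCNX4, a pecanex family membrane protein, returned to the band, at 586, 508 and 457 against 666, 685 and 729 (0.43, SE 0.086). DHRS7, a short-chain dehydrogenase, read 1558, 1604 and 1665 against 1817, 1970 and 1975 (0.25, SE 0.051). Both were higher on each PSMA array. PPM1A, a phosphatase of SMAD and stress kinase signalling, was slightly lower, at 1030, 1029 and 982 against 938, 950 and 972 (-0.088, SE 0.043). Its second tested probe set had a difference of 0.13, so PPM1A has no settled direction.

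MNAT1, the assembly factor of the CDK-activating kinase, read 655, 664 and 675 on control arrays and 937, 1022 and 953 on PSMA arrays (0.54, SE 0.047), a difference well beyond its spread. TRMT5, a tRNA methyltransferase, did not follow. On its only probe set it read 4361, 4219 and 4297 against 4090, 4324 and 4294, with overlap (-0.019, SE 0.043). PRKCH, which encodes the eta form of protein kinase C, read 382, 375 and 349 against 557, 560 and 566 (0.61, SE 0.047) and was the last member before the second high part; its other tested probe set gave 0.37. Without control replicate 3 the PRKCH difference was 0.57, just under 1.5-fold. SIX4, a homeobox factor, had no probe set listed.

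TRMT5 was one of a pair of genes that start close together on opposite strands. Its listed start lay 445 bases from that of SLC38A6, an amino acid transporter gene whose difference was 0.62. There were 5 such pairs among tested genes of the interval (starts at most 1000 bases apart). By the brightest probe sets, the log2 differences of the partners were furthest from each other in this pair. EXOC5 and AP5M1, 66 bases apart, had differences of 0.48 and 0.62. TIMM9 and KIAA0586, 131 bases apart, had 0.44 and 0.63, and ATP6V1D and EIF2S1, 524 bases apart, had 0.052 and 0.18. On its other 2 tested probe sets EIF2S1 had 0.66 and 0.63, so how far that pair differed depends on the probe set. ZBTB1 and ZBTB25, 49 bases apart and neither of them a member, had 1.06 and 0.98.

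The second high part opened abruptly. TMEM30B and HIF1A, the last 2 tested genes before it, had differences of 0.035 and 0.022, with overlapping groups, although the running median counted them in. SNAPC1, a subunit of the complex that starts transcription of small nuclear RNA genes, was next. It read 1587, 1618 and 1232 on control arrays and 4223, 3645 and 4258 on PSMA arrays, 2.75-fold higher (log2 difference 1.46, SE 0.11), the largest difference among the tested members. Control replicate 3 was its lowest array, and without it the difference was 2.52-fold.

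PPP2R5E, a regulatory subunit of protein phosphatase 2A, read 1738, 1718 and 1657 against 4019, 4291 and 4371, a 2.48-fold difference (1.31, SE 0.048). Its lowest PSMA array was far above its highest control array. SGPP1, which dephosphorylates sphingosine 1-phosphate, was smaller and more spread, at 181, 187 and 127 against 291, 271 and 242 (0.71, SE 0.14). Without control replicate 3 it was 1.45-fold higher, under the limit of 1.5-fold. SYNE2, which encodes the nuclear envelope linker nesprin-2, read 122, 121 and 104 against 241, 263 and 238, 2.15-fold higher and apart (1.10, SE 0.072).

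Members below the filter in both groups lay inside this part as well. ESR2, which encodes oestrogen receptor beta, had 5 probe sets, of which the brightest read 17.2 to 20.5 on control arrays and 17.3 to 21.1 on PSMA arrays. AKAP5, an anchor of protein kinase A, read at most 12.9 on any control array, with a PSMA mean of 12.6. GPX2, a glutathione peroxidase of epithelia, read 25.2 to 29.4 and 24.7 to 27.4. In these 3 the groups overlapped at levels under the filter, and no shift was seen. A small shift could be hidden at such levels. NID2 and TRIM9, with control means of 12.4 and 9.58, differed by 4.28- and 1.98-fold. Such large differences do not show whether smaller ones were hidden in other genes. SPTB, the beta spectrin of red cells, was also below the filter but higher on each PSMA array, at 32.0 to 32.5 against 39.0 to 47.3. CHURC1 had no probe set listed, and the 2 probe sets shared by FNTB and CHURC1-FNTB had differences of 0.50 and 0.37, assigned here to neither gene.

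MAX, FUT8 and GPHN closed the second high part. MAX, the dimer partner of the MYC proteins, read 573, 615 and 599 on control arrays and 1116, 1078 and 1124 on PSMA arrays, 1.86-fold higher with the groups far apart. FUT8, the enzyme that adds core fucose to N-glycans, read 751, 719 and 698 against 1706, 1815 and 1808, 2.46-fold higher (1.30, SE 0.048). GPHN, which encodes gephyrin, a scaffold of inhibitory synapses that also makes molybdenum cofactor, read 85.9, 83.3 and 70.8 against 156, 163 and 162, 2.01-fold higher (1.01, SE 0.072). Neither FUT8 nor GPHN had any overlap between groups. On the brightest probe set, all 7 tested members from SNAPC1 to GPHN were at least 1.5-fold higher, with a median of 1.10. Among all tested genes, 6.78% were 1.5-fold or more higher with the groups apart. The part was picked as a raised one, so the count supports nothing. With the mean of its probe sets MAX had 0.54, under 1.5-fold, and SGPP1 fell under it without control replicate 3. The tested genes of this part also held RAB15, at -0.021.

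Distal of GPHN the differences on the brightest probe sets were smaller. The 5 tested genes from PALS1 to PIGH had a median of 0.18, from -0.26 to 0.44. ATP6V1D, a subunit of the proton pump of lysosomes, read 1206, 1185 and 1193 against 1237, 1268 and 1212 (0.052, SE 0.041); its groups were apart by a small margin. EIF2S1, the alpha subunit of the initiation factor eIF2, read 2245, 2114 and 2166 against 2440, 2434 and 2524 (0.18, SE 0.044) on its brightest probe set, and 0.63 and 0.66 on the other 2. PLEK2, a pleckstrin family protein of cell spreading, was the lowest of the tested members, at 403, 398 and 411 against 338, 325 and 353 (-0.26, SE 0.046), lower on each PSMA array. PIGH, part of the enzyme that starts the synthesis of GPI anchors, read 184, 179 and 178 against 239, 234 and 261 (0.44, SE 0.051), so the last member was again higher on each array.

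Of the 41 tested genes between the first and the last stretch, 25 were under 1.5-fold, and 15 of these were members. In 10 of the 15 each PSMA array was nonetheless above each control array on the brightest probe set. These 10 were CNIH1, GMFB, FBXO34, KTN1, EXOC5, ACTR10, TIMM9, PCNX4, DHRS7 and MNAT1. GMFB (-0.20) and PPM1A (0.13) pointed the other way on a second tested probe set. By the brightest probe set, the members not higher on each PSMA array were GCH1, LGALS3, DAAM1, PPM1A and TRMT5. They were scattered, each with higher genes on both sides. Over the whole interval 11 of the 57 tested genes were not higher on every PSMA array. Among all tested genes, 36.6% were lower on every PSMA array and in 30.5% the groups overlapped. Of the 11, 7 were members, SAV1 and PLEK2 being the other 2. The 4 that were no members were BMP4, TMEM30B, HIF1A and RAB15. Of the 11, LGALS3 and TRMT5 were among the brightest members, with control means of 3994 and 4293, each on 1 probe set. Whether signal level bears on the lack of a rise was not tested.

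**Figure D3:**
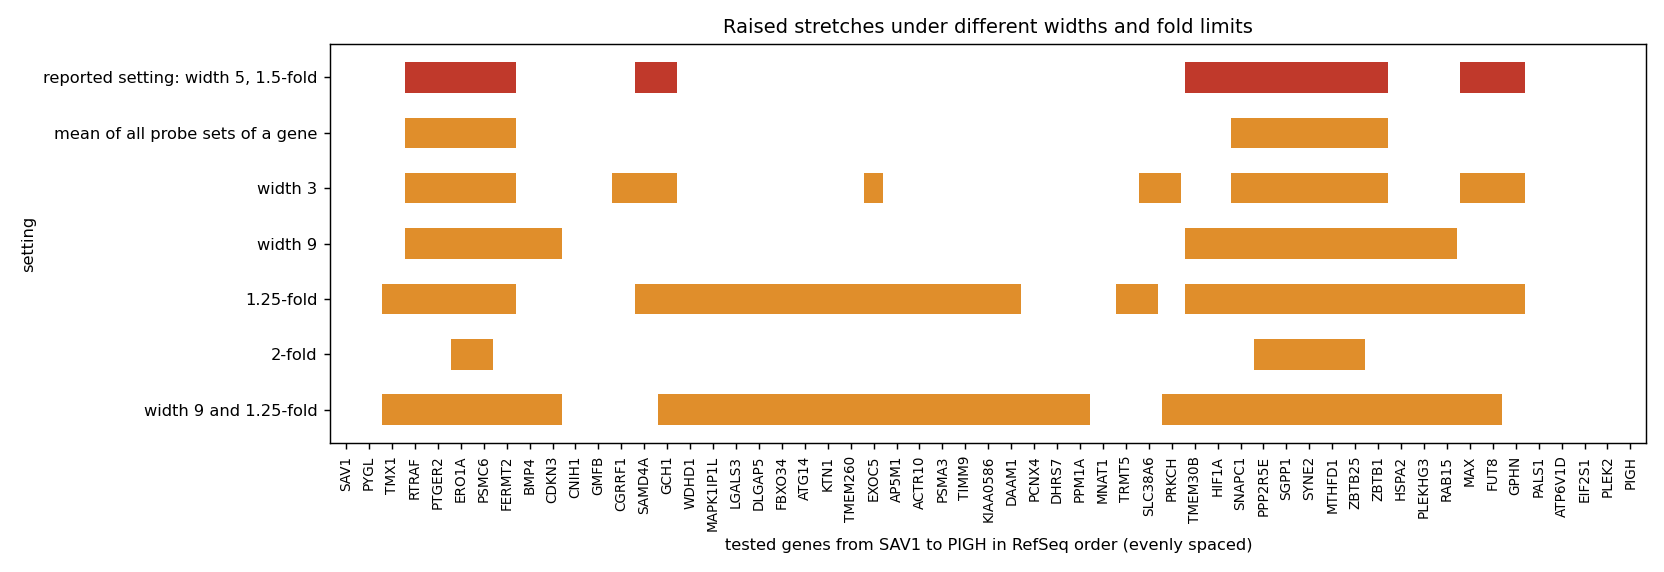
Extent of the raised stretches among the 57 tested genes from SAV1 to PIGH, in RefSeq order, under 7 settings (1 row each; bars span the genes whose running median reaches the fold limit). The part around ERO1A and PSMC6 and the part from PPP2R5E to ZBTB25 are covered in all 7 rows, and no row is a single bar.

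By role, no list of members was made up of raised genes alone. Of 7 tested members in gene and RNA regulation, 4 were at least 1.5-fold higher on the brightest probe set (SNAPC1, MAX, SAMD4A and WDHD1). Their list had a median of 0.73, with TRMT5 lowest at -0.019. Among all tested genes, 6.78% were 1.5-fold or more higher with the groups apart. With the mean of a gene's probe sets, SAMD4A had 0.49 and MAX 0.54, both under 1.5-fold, while EIF2S1 of the same list rose from 0.18 to 0.49. Of 7 tested members of the endoplasmic reticulum and membrane traffic, 0 reached 1.5-fold, and they lay between 0.052 (ATP6V1D) and 0.48 (EXOC5). Metabolic enzymes spanned 0.001 (GCH1) to 1.30 (FUT8) over 5 tested members. The 4 tested signalling members spanned -0.088 (PPM1A) to 1.31 (PPP2R5E), and the 5 of the cytoskeleton -0.26 (PLEK2) to 1.10 (SYNE2). The 2 tested ubiquitin ligases, CGRRF1 and FBXO34, had 0.74 and 0.52. Of the 2 members that act outside the cell LGALS3 alone was tested. The lists are short and follow place as much as role, so they are given as a description.

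Agreement between probe sets could be read in the 10 members with more than 1 tested probe set. TMX1 (0.39 and 0.42), KTN1 and ATP6V1D were close. In WDHD1 all 3 probe sets were over 1.5-fold, at 0.73, 0.81 and 1.37. MAX split, with 0.89 and 0.96 on 2 probe sets and 0.27, 0.27 and 0.30 on the other 3. SAMD4A had 0.98 on the brightest and 0.006 on its second. EIF2S1, GMFB and PPM1A changed size or sign, as given above. With the mean of a gene's probe sets in place of the brightest, 8 rather than 11 members reached 1.5-fold with the groups apart, and the stretches at SAMD4A and at MAX were no longer found.

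**Figure D4:**
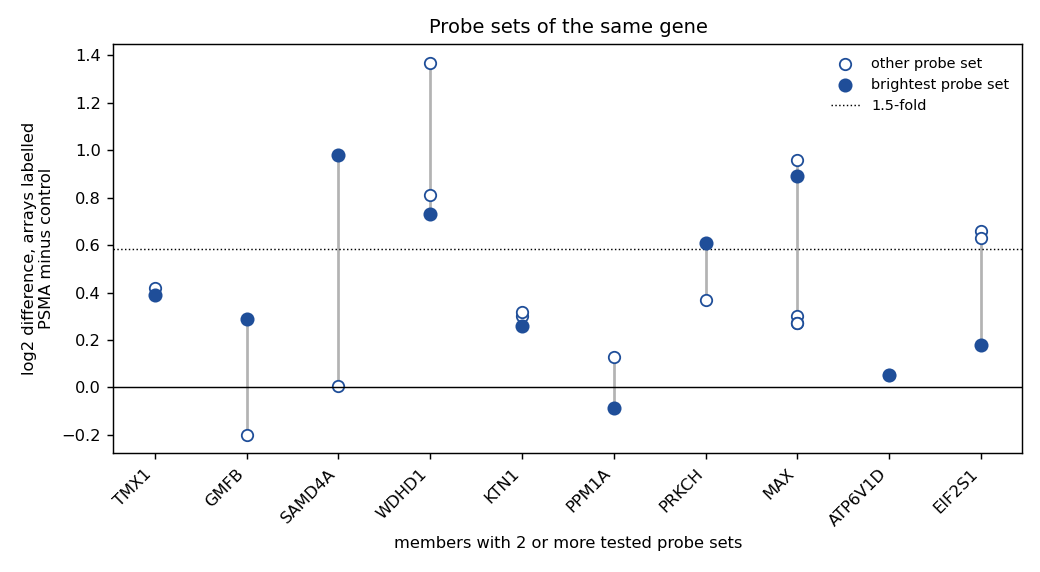
Log2 difference (arrays labelled PSMA minus control) on each tested probe set of the 10 members with 2 or more, in RefSeq order; filled points are the brightest probe set and open points the others, and the dotted line is 1.5-fold. WDHD1 is above the line on all 3 probe sets, while GMFB and PPM1A have points on both sides of 0.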

How the data were processed

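Processed intensities, 1 per probe set and array, were deposited for 6 Affymetrix arrays; per the submitters' processing notes the authors made them with GCRMA, which corrects background by base composition, normalizes across arrays and summarises probe sets. Version and scale are not given in the sources used here; values from 3.76 to 17455 were taken as linear intensity in arbitrary units. The method shrinks dim signals towards a shared floor, so folds of dim genes depend on it, and precision is limited by 3 arrays a group.

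The deposited intensity values were log2-transformed here without a pseudocount. Of 22277 probe sets, 62 controls were left out, 19064 had 1 gene symbol, 1043 several (not used for naming) and 2108 none here. Probe sets above 52.5 on 3 or more arrays were kept (11303), and the brightest single-gene probe set stood for each of 7035 genes. All genes entered 1 model in limma 3.58.1 under R 4.3.3 (eBayes; Benjamini-Hochberg, 0.05), which was tested on simulated data. Order came from the RefSeq table of GRCh38.p14, matched by gene identifier (7033 genes, 243 on chromosome 14). Python 3.11.15, pandas 2.3.3, numpy 2.4.6 and matplotlib 3.10.9 made summaries and plots.

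Members and lists were chosen with earlier results of these data known. Each member was to be accounted for, with array values for the 5 largest and 5 smallest differences, the ends of stretches and the unraised members between them; other genes were named where a stretch turned on them or as the 5 tested genes on either side, and array values of the remaining members were added. Alternatives were other filters, a floor, a pseudocount, other probe set and scaling choices, single arrays left out, and other widths and fold limits.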

Additional observations from a re-analysis of the deposited data

How the results depend on the processing

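The median over tested members was 0.43 and 0.35 with no filter on dim probe sets (42 members); leaving out single arrays gave 0.34 to 0.44. Against a minimum fold of 1.5 (limma treat), 7 members were called higher, and 0 lower. With limits of 0.32 and 1 on the log2 scale, 18 and 5 members were higher with groups apart. The shares of all genes past these limits were not computed, so the counts are a description only. The 4 stretches became 2 with the mean of a gene's probe sets, with a width of 9 genes, with a limit of 1 on the log2 scale and with members alone in order; a width of 3 gave 6, and the highest filter tried gave 3. The 25 unraised genes between stretches became 12 with a limit of 0.32, 12 with members alone, and 10 with a width of 9 and a limit of 0.32 together, an alternative chosen after seeing the data. Of 395 values of single members under 12 settings, 386 moved by less than 1 SD, 9 moved more (7 with the mean of probe sets), and no called member changed sign. Leaving out 1 array ended 1 limma call, that of EXOC5. None of the 12 settings moved the median of all genes by over 0.030, the shift with no filter on dim probe sets. Quantile normalization moved it by 0.021. The causes were not tested. No paired analysis was possible because the groups share no replicate number. Of the 9 measured members under the filter, NID2, TRIM9 and SPTB were higher on each PSMA array, and in the other 6 the groups overlapped. Among the 7035 genes above the filter, 32.9% were higher on each PSMA array. The share among all genes under the filter was not computed, so these counts too are a description only.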
